A study of Homo sapiens with 6 samples.

Results

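Mucin genes code for large glycoproteins whose long serine- and threonine-rich stretches carry dense O-linked sugar chains. The 8 genes described here, MUC1, MUC4, MUC12, MUC13, MUC15, MUC16, MUC20 and MUC5B, were taken by symbol from the 23228 genes counted in RL95-2, an established cell line from a human endometrial carcinoma. MUC1, MUC4, MUC12, MUC13, MUC15, MUC16 and MUC20 are membrane-bound mucins of the cell surface, and MUC5B is a secreted mucin that polymerizes into mucus gel. On the lining epithelium of the endometrium, membrane mucins form the apical glycocalyx, and MUC1 is known for its hormone-regulated expression there, while MUC16 carries the CA125 antigen measured in gynaecological cancers.

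RNA was sequenced from 3 libraries of control cells, kept for 24 h in serum-free RPMI mixed 1:1 with DMEM, and from 3 libraries of cells kept for 24 h in serum-free RPMI mixed 1:1 with ADP-CM. ADP-CM is culture medium conditioned by mature adipocytes from human visceral fat, and neither group carried a transgene or drug. A single cell line was used, the labels do not say whether the replicates were separate cultures, and p-values therefore measure only the spread between these samples. The comparison asks how the adipocyte medium alters the tumour cells' RNA.

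Between 16262614 and 18363033 reads were counted on genes per library, and 12663 genes passed edgeR's filter on low counts and were tested. All 6 libraries held the labelled cell type by its markers, with none of 9 epithelial genes at 0 in all libraries. Their summed level was 5629 to 5780 TMM-normalized CPM (read counts per gene scaled to library size) in control and 4907 to 4993 CPM in ADP-CM. KRT8, KRT7 and KRT18 gave the largest parts, with control means of 1843, 1560 and 1508 CPM. CLDN3, at 0.456 CPM in control, fell below the filter. In ADP-CM 5 of the 8 tested were lower at an adjusted p of 0.01 by edgeR's test, against 13% of all tested genes. The defining adipocyte genes ADIPOQ and LEP were at 0 in all 6 libraries, and the 8 adipocyte markers together stayed between 0.616 and 1.20 CPM. Summed stromal markers were 61.7 to 68.6 CPM in control and 79.1 to 79.6 CPM in ADP-CM, leukocyte markers 8.30 to 9.25 and 10.7 to 12.9 CPM, and endothelial markers 60.9 to 67.1 and 54.6 to 62.2 CPM. Each of these 3 sums was nearly the level of 1 gene. COL1A1 had a mean of 62.3 CPM in control and 76.7 CPM in ADP-CM, CD68 of 7.43 and 10.7 CPM, and CDH5 of 63.5 and 58.6 CPM. The stromal genes COL1A2, DCN and PDGFRA, the leukocyte genes PTPRC, CD3E and LYZ, and the endothelial genes PECAM1, CLDN5 and KDR were at or near 0. Other genes of these lists had low counts, with 19 to 47 reads per library for COL3A1 and 14 to 23 for ITGAM. VIM had 3, 4 and 3 reads in control and 12, 6 and 14 in ADP-CM, without overlap. VWF went the other way, with 8 reads in each control library and 2, 6 and 1 in ADP-CM. Whether cells of these other types contributed to any mucin value was not tested.

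The sugar-bearing repeats are printed for 3 membrane mucins, MUC1 as the member that changed, MUC20 as the other member tested, and MUC4 for comparison. They were read from the coding exons of GRCh37 (the hg19 build), 5′ to 3′ on the coding strand, with the serine and threonine codons in capitals, the residues to which O-linked sugars can be attached. The MUC1 unit of 60 bases lies at chr1:155161734-155161793 (minus strand), in a run of 3 copies, and 55 of its 60 bases match the next copy. The MUC20 unit of 57 bases lies at chr3:195451994-195452050 (plus strand), in a run of 12 copies, and 56 of its bases match the next copy. The MUC4 stretch of 96 bases lies at chr3:195509652-195509747 (minus strand), and 91 of its bases match the next of 6 such stretches. It was taken as the period at which most sequence recurred at a 90% match. The stretch is itself made of similar shorter repeats, so its length and copy number are not those of the shortest repeat.
MUC1: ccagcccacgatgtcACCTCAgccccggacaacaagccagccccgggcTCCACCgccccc
MUC20: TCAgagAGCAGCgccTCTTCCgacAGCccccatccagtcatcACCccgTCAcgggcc
MUC4: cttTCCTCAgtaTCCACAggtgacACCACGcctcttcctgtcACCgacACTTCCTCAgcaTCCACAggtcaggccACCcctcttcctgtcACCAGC

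Serine or threonine took 4 of 20 codons in the printed MUC1 unit and 8 of 19 in the MUC20 unit. In the MUC4 stretch they took 15 of 32. Each printed sequence is a single copy in the reference genome and is not identical to the next copy. Further copies were not compared with it. A read of 50 bases inside such copies can align to more than 1 place and is then left out by the counting. In MUC1, 98.4% of the 50-base windows of its reference exons occurred once in the reference genome. In MUC20 that share was 71.0%, in MUC4 72.1%, in MUC5B 67.9% and in MUC12 37.5%. It was 100% in MUC13 and MUC15 and 99.2% in MUC16. Counts of MUC4, MUC5B, MUC12 and MUC20 are thus counts over part of each gene's sequence, the same part in both groups.

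Mucin RNA was scarce in RL95-2 cells. The 8 genes together had 43, 46 and 46 reads in control replicates 1, 2 and 3 and 60, 47 and 113 reads in ADP-CM replicates 1, 2 and 3. No member was at 0 in all 6 libraries, but only MUC1 and MUC20 passed the filter on low counts. The other 6 had at most 10 reads in any library, and 3 reads, the limit that a count of 0 allows, corresponded to 0.163 to 0.184 CPM. Read limits and intervals cover counting error only. In bulk RNA such as this, fewer cells making a transcript and less of it per cell cannot be told apart.

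**Figure D1:**
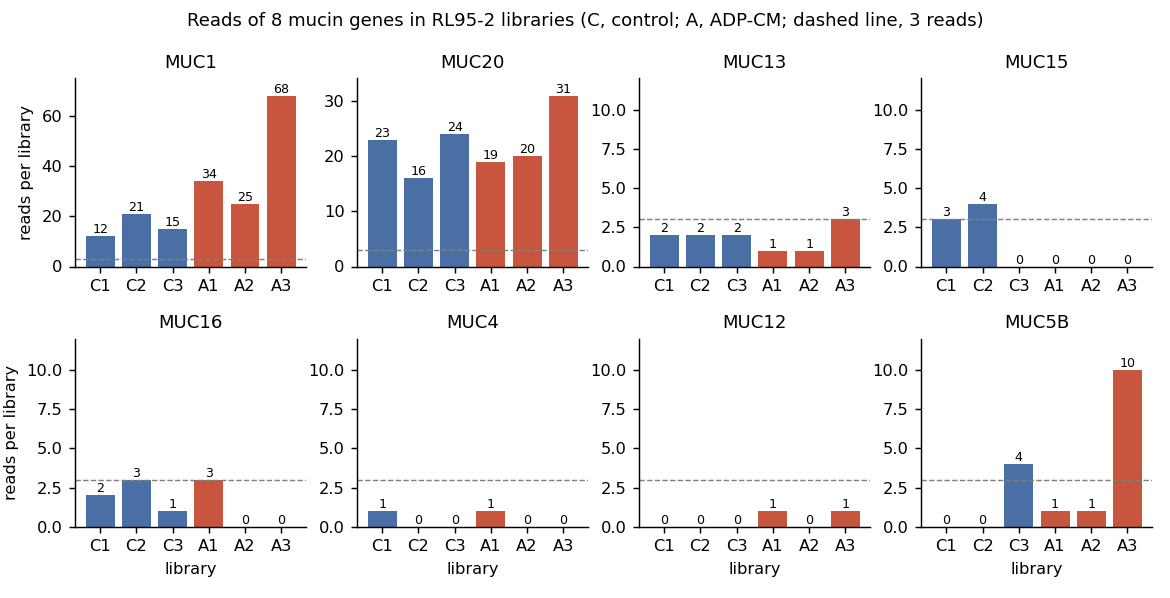
Reads of each of the 8 mucin genes (vertical axis, reads per library, own scale for MUC1 and MUC20) in control libraries C1 to C3 (blue) and ADP-CM libraries A1 to A3 (red), with the dashed line at 3 reads. MUC1 is higher in every ADP-CM library than in any control library, with 68 reads in A3, while MUC20 overlaps and the other 6 genes have 10 reads or fewer throughout.

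Compared per length, as RPKM (reads per kilobase of exon, scaled to the TMM-normalized library size like CPM), MUC1 had the highest level of the 8 genes in control. Its RPKM there was 0.397 ± 0.109 (SD, n = 3), with a range of 0.308 to 0.518. MUC20 was the next at 0.184 ± 0.0391 (range 0.139 to 0.207), and the ranges of the pair did not overlap. MUC15 at 0.0392 ± 0.0347 and MUC13 at 0.0342 ± 0.000945 lay below MUC20 and overlapped each other. MUC5B, MUC16, MUC4 and MUC12 were at an RPKM of 0.00419 or less, and each overlapped its neighbour in the order. In ADP-CM the same measure put MUC1 first at 0.963 ± 0.511 (range 0.568 to 1.54) and MUC20 next at 0.187 ± 0.0521 (range 0.154 to 0.247), again without overlap. MUC13 at 0.0260 followed MUC20 without overlap, and the levels of the remaining 5 genes overlapped their neighbours. On the CPM scale without length the order of the leading pair in control was the other way, with 0.953 CPM for MUC1 and 1.26 CPM for MUC20. MUC20 has 6837 exonic bases in the annotation, against 2401 for MUC1. Of all genes counted, 47.6% had a lower mean CPM in control than MUC1 and 48.6% a lower one than MUC20.

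MUC1 (chr1:155158300-155162707, minus strand, GRCh37), the membrane mucin with a cytoplasmic tail that takes part in signalling, had 12, 21 and 15 reads in control replicates 1, 2 and 3. It had 34, 25 and 68 reads in ADP-CM replicates 1, 2 and 3. Every ADP-CM library lay above every control library, the narrowest gap was 21 against 25 reads, and ADP-CM replicate 3 alone held 68 of the 127 ADP-CM reads. In TMM-normalized CPM with 95% Poisson intervals, the control libraries were at 0.740 (0.382 to 1.29), 1.24 (0.770 to 1.90) and 0.877 (0.491 to 1.45). The ADP-CM libraries were at 1.88 (1.30 to 2.62), 1.36 (0.882 to 2.01) and 3.70 (2.87 to 4.69). The interval of ADP-CM replicate 2 overlapped those of all 3 controls, and that of ADP-CM replicate 3 lay above the intervals of all 5 other libraries.

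MUC1 rose from 0.953 ± 0.261 CPM in control to 2.31 ± 1.23 CPM in ADP-CM (SD, n = 3 each), or 2.41-fold. The log2 fold change was 1.27 with a standard error of 0.28 and a 95% interval of 0.72 to 1.82. The quasi-likelihood test of edgeR, adjusted by Benjamini-Hochberg over all tested genes, gave an adjusted p of 0.000203. At the limits of an adjusted p under 0.01 and a fold change over 1.5, MUC1 was the single one of the 8 members called changed. Of all 12663 tested genes, 1.14% were called higher and 2.27% called in either direction. MUC1 ranked 14th by fold among the 144 genes called higher, whose median log2 fold change was 0.79, and its standard error of 0.28 stood against a median of 0.16 among them. Non-overlap of the 3 libraries with the 3 others, as MUC1 had, was found for 45.5% of tested genes. An exact two-sided permutation test of the MUC1 CPM over the samples gave p = 0.1, the smallest that 3 against 3 libraries allow, and the same test gave 0.3 to 1 for the 7 other members.

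**Figure D2:**
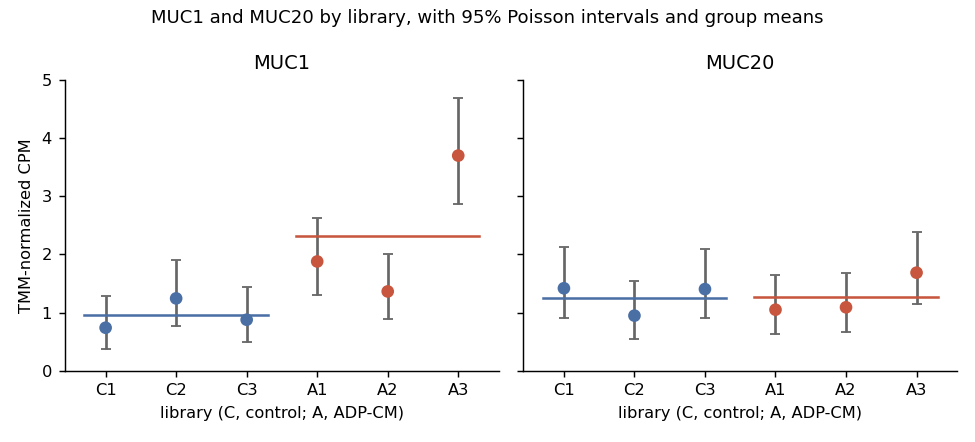
TMM-normalized CPM of MUC1 (left) and MUC20 (right) in each control (C, blue) and ADP-CM (A, red) library, with 95% Poisson intervals as bars and group means as horizontal lines. For MUC1 the interval of A3 (2.87 to 4.69) lies above those of all other libraries, and for MUC20 the group means of 1.26 and 1.28 nearly coincide.

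The call of MUC1 rested on ADP-CM replicate 3. Without that library the log2 fold change was 0.76 and the adjusted p 0.0417, above the limit. Leaving out any other library kept the call, with log2 fold changes of 1.12 to 1.54. With replicates 1 and 2 of both groups alone, a choice made after the reads had been seen, it was 0.70 with an adjusted p of 0.0930 by the same edgeR test. In each of these fits the direction was upwards.

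**Figure D3:**
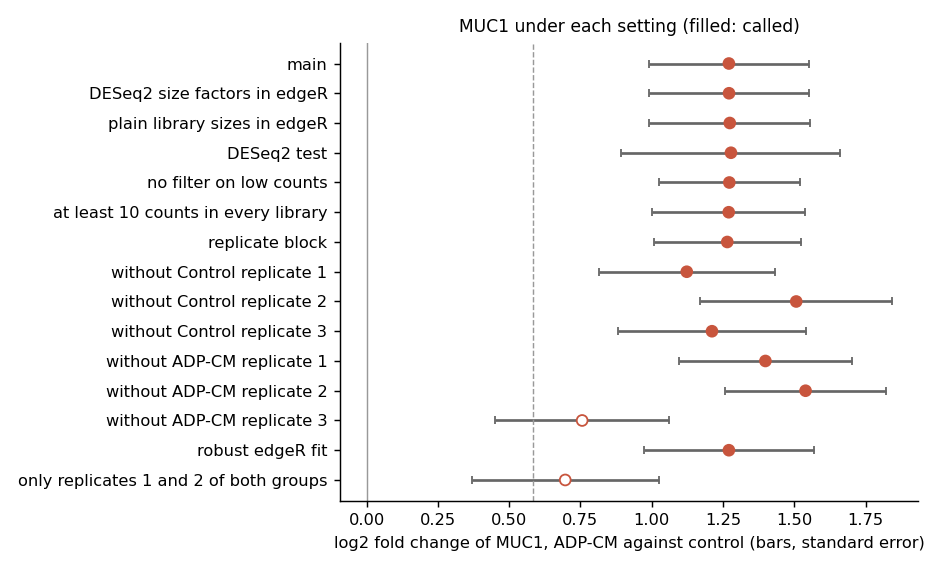
Log2 fold change of MUC1 in ADP-CM against control (horizontal axis, bars show the standard error) under each processing setting, with filled points where MUC1 was called at an adjusted p under 0.01 and a fold change over 1.5 (dashed line). The open points are the 2 settings without ADP-CM replicate 3, at 0.76 and 0.70.

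Other genes moved with that library, and they were chosen after their values were seen. CFB, complement factor B, had 10, 17 and 9 reads in control and 27, 26 and 178 in ADP-CM replicates 1, 2 and 3, and it shares 42.8% of its exonic bases with other genes on its strand. SERPINA3, an acute-phase protease inhibitor, had 24, 16 and 32 reads in control and 40, 33 and 106 in ADP-CM. Like MUC1, both had their highest value in ADP-CM replicate 3 and no excess of that size in control replicate 3. SERPINA3 was nonetheless highest among the controls in replicate 3, at 32 reads, unlike CFB at 9 reads.

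TFF1, a trefoil peptide secreted together with mucins, had 9, 86 and 225 reads in control and 52, 34 and 502 in ADP-CM. SPDEF, a transcription factor of secretory epithelium, had 0, 13 and 23 reads in control and 11, 14 and 41 in ADP-CM. Both were highest in replicate 3 of each group, whereas MUC1 in control replicate 3 had 15 reads, between the 12 and 21 of the other controls. The part of whatever sets ADP-CM replicate 3 apart in the MUC1 value was not tested.

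**Figure D4:**
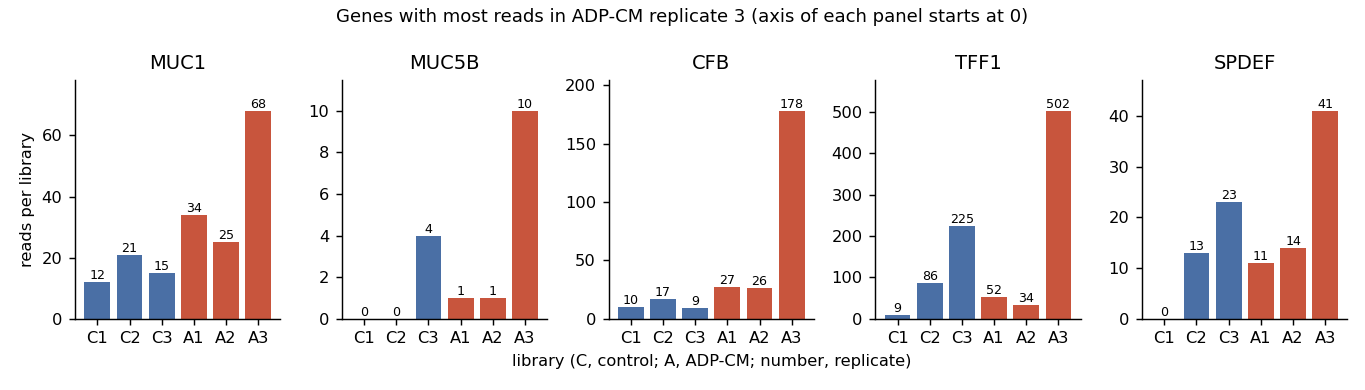
Reads per library of MUC1, MUC5B, CFB, TFF1 and SPDEF (vertical axes, each from 0) in control (C) and ADP-CM (A) replicates 1 to 3. All 5 genes are highest in A3, and MUC5B, TFF1 and SPDEF are also highest among controls in C3, where MUC1 has 15 reads and CFB 9.

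The genes beside or near MUC1 on chromosome 1 differed among themselves. THBS3, a thrombospondin of the extracellular matrix whose gene ends 2672 bases upstream of MUC1 on the same strand, had 57, 49 and 57 reads in control and 83, 85 and 93 in ADP-CM (log2 fold change 0.55, adjusted p 0.00301 in edgeR's test). Its groups did not overlap, and it fell short of the fold limit. Genes on the opposite strand cover 29.1% of the exonic bases of THBS3. TRIM46, 853 bases beyond the other end on the opposite strand, had 5, 9 and 9 reads in control and 9, 7 and 7 in ADP-CM, which overlap. KRTCAP2, farther from MUC1 and part of the complex that N-glycosylates proteins, had 753, 771 and 798 reads in control. In ADP-CM it had 795, 771 and 784 reads, also overlapping. Another protein-coding gene annotated on the same strand shares 2.00% of the exonic bases of MUC1 and 18.5% of those of KRTCAP2.

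By correlation of TMM log2 CPM over the 6 libraries, among 12136 tested genes with a mean of at least 1 CPM, the genes most like MUC1 were ESRP2, an epithelial splicing regulator (r = 0.994), MARS2 (0.991), CCDC138 (0.988), LMCD1 (0.984) and TMEM132A (0.98). These are descriptions over 6 libraries that share depth and treatment. The fitted log2 fold changes of these 5 genes lay between 0.03 and 0.16, far smaller than that of MUC1.

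The RefSeq promoter table (GRCh38.p14, from 250 bases before to 50 after each start) held entries for 5 of the 8 members, MUC1, MUC4, MUC12, MUC13 and MUC16. The table gives MUC1 2 neighbouring starts. The 250 bases before the more downstream one, chr1:155192910-155193159 on the minus strand, are printed as the regulatory sequence of the member that changed, with each GC box (GGGCGG on either strand) in capitals.
MUC1: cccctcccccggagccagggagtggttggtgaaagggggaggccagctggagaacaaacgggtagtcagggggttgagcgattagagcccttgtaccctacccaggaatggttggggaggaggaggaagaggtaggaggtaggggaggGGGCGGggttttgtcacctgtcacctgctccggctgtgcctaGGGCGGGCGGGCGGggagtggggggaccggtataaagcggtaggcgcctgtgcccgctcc

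The window held 4 matches to the GC box, starting at -102, -60, -56 and -52 from the start, the last 3 of them overlapping. At least 1 GC box was found in 45.0% of all 35116 promoters in the table. The letters TTCNNNGAA, the core of the STAT element, were not found in either strand of the MUC1 window and were present in 7.66% of all promoters. Among the other members, the MUC4 window held 1 such match, starting at -11, and 1 GC box. One of the MUC16 windows held 1 GC box, and the windows of MUC12 and MUC13 held neither motif. The palindromic steroid receptor element, searched on both strands, was in no member's window and in 0.00285% of all promoters.

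MUC20 (chr3:195447755-195467994, plus strand), a membrane mucin that binds the hepatocyte growth factor receptor MET, had 23, 16 and 24 reads in control and 19, 20 and 31 in ADP-CM. The groups overlapped, with ADP-CM replicate 3 highest and control replicate 2 lowest. The means were 1.26 ± 0.267 CPM in control and 1.28 ± 0.356 CPM in ADP-CM (SD, n = 3 each), and the log2 fold change was 0.02 (standard error 0.27, adjusted p 0.958 in edgeR's test). The 95% interval of that log2 value ran from -0.51 to 0.56, and a change within it was not detectable at this depth. An overlapping same-strand gene, MUC20-OT1, covers 27.1% of the exonic bases of MUC20 in the annotation used for lengths. If MUC20-OT1 was also among the genes used for counting, which is not shown here, reads in the overlap could be left out.

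MUC1 took a larger part of the mucin reads in ADP-CM. It accounted for 27.9%, 45.7% and 32.6% of the reads of the 8 genes in control and for 56.7%, 53.2% and 60.2% in ADP-CM. The share was 35.4% ± 9.19 and 56.7% ± 3.49 (SD, n = 3 each), higher in all 3 ADP-CM libraries than in any control, with p = 0.1 in the exact permutation test. Reads of the 7 other genes together were 31, 25 and 31 in control and 26, 22 and 45 in ADP-CM, overlapping, with an exact permutation p of 0.9 (n = 3 each). ADP-CM replicate 3 was the highest of the 6 libraries in that sum too.

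MUC5B (chr11:1244296-1283402, plus strand), the gel-forming mucin, had 0, 0 and 4 reads in control and 1, 1 and 10 in ADP-CM. All 4 control reads and 10 of the 12 ADP-CM reads came from replicate 3, the replicate in which TFF1 and SPDEF were highest. Whether RNA from other cells was present in the replicate 3 libraries was not tested, and the reads of MUC5B cannot be assigned to RL95-2 cells from these counts alone. The groups overlapped, and without a filter on low counts its log2 fold change was 1.38 (adjusted p 0.281 in edgeR's test).

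MUC15 (chr11:26580579-26593810, minus strand), a small membrane mucin, had 3, 4 and 0 reads in control and 0 in each ADP-CM library. Control replicate 3 was at 0 like the treated libraries, so the groups overlapped. Against a limit of 3 reads over the ADP-CM group, its 7 control reads would be 2.54-fold higher. That value leaves out the counting error of the 7 reads themselves. The exact permutation test of its CPM gave p = 0.4. Without a filter on low counts its adjusted p in edgeR's test was 0.0399, over 0.01.

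MUC16 (chr19:8959520-9121066, minus strand), the CA125 mucin and the longest gene of the 8 in exonic sequence (44165 bases), had 2, 3 and 1 reads in control and 3, 0 and 0 in ADP-CM. MUC13 (chr3:124624289-124672663, minus strand), a membrane mucin best known from the gut, had 2 reads in each control library and 1, 1 and 3 in ADP-CM. Both overlapped between groups, with adjusted p of 0.563 and 0.834 by edgeR's test without a filter.

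MUC4 (chr3:195473636-195538844, minus strand), a membrane mucin that binds the receptor ERBB2, had 1 read in control replicate 1, 1 in ADP-CM replicate 1 and none elsewhere. MUC12 (chr7:100612846-100662220, plus strand), a membrane mucin of the colon, had no read in control and 1 read each in ADP-CM replicates 1 and 3. Both genes were at or under the limit of 3 reads in both groups, and no fold is given.

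The other mucins and mucin-like genes gave little more. Of 15 genes listed, 11 were in the tables and analysed here, and 6 of these, MUC2, MUC6, MUC17, MUC21, EMCN and MCAM, were at 0 in all 6 libraries. CD164, a small sialomucin of intracellular membranes, was the single one tested, at 169 ± 3.13 CPM in control and 168 ± 0.954 CPM in ADP-CM (log2 fold change -0.01, adjusted p 0.730 by edgeR's test). Its level exceeded that of every member. The number of its genes past the threshold was 0 by edgeR's test, 0 by DESeq2 and 0 at an unadjusted p under 0.05.

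The enzymes that build mucin-type O-glycans changed in both directions. Of 34 listed genes 22 were tested, and at an adjusted p of 0.01 by edgeR's test 6 were higher in ADP-CM, 4 were lower and 12 did not pass. The median log2 fold change was -0.06 against -0.0023 over all tested genes, of which 13.5% were higher and 13% lower at that adjusted p. ST6GALNAC2, which adds sialic acid to the core sugar, was the single one past the fold limit.

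ST6GALNAC2 had 26, 44 and 31 reads in control and 14, 12 and 11 in ADP-CM. The groups did not overlap, and it fell from 2.01 ± 0.529 to 0.675 ± 0.0895 CPM (log2 fold change -1.57, adjusted p 5.88e-06 by edgeR's test). In the annotation 39.8% of its exonic bases are shared with another gene on its strand. ST3GAL1, which caps the core 1 sugar with sialic acid, rose from 38.6 ± 1.06 to 53.5 ± 0.591 CPM (log2 fold change 0.47, adjusted p 5.26e-13 by edgeR's test).

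GCNT1 and GCNT4, the enzymes that branch core 1 into core 2 chains, fell. GCNT1 went from 42.7 ± 1.54 to 32.5 ± 0.757 CPM (log2 fold change -0.39, adjusted p 3.34e-09) and GCNT4 from 25.1 ± 1.37 to 19.0 ± 1.43 CPM (-0.41, adjusted p 9.00e-07), both by edgeR's test. GALNT10, one of the enzymes that place the first sugar on serine or threonine, rose from 67.8 ± 3.50 to 78.6 ± 2.48 CPM, a log2 fold change of 0.21.

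**Figure D5:**
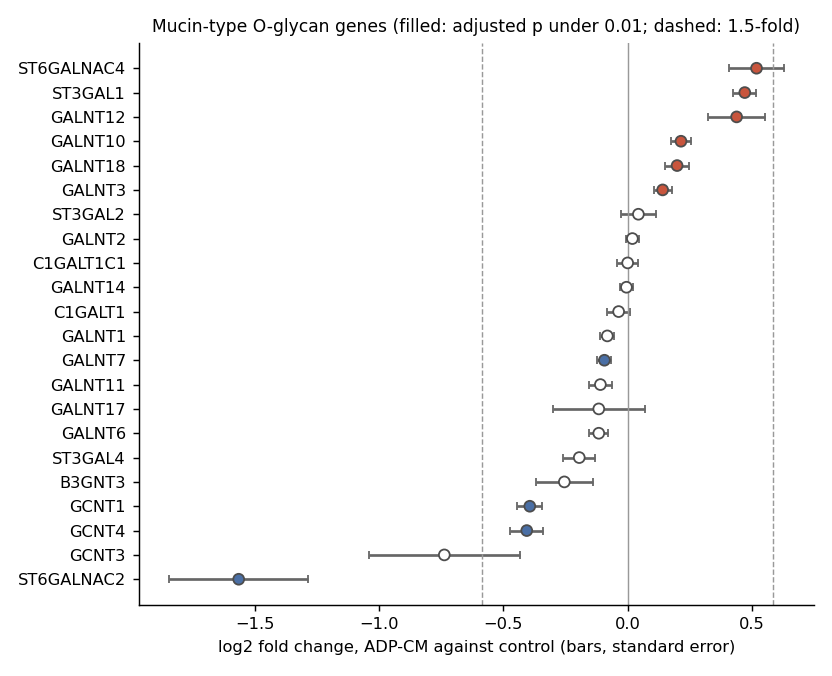
Log2 fold change in ADP-CM against control (horizontal axis, bars show the standard error) of the 22 tested genes of mucin-type O-glycan synthesis, ordered by size and filled where the adjusted p was under 0.01. Of the filled points 6 lie above 0 and 4 below, and ST6GALNAC2 at -1.57 is the single one beyond the dashed lines of a 1.5-fold change.

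Among transcription factors that act on mucin genes, 17 of 24 were tested, with 2 higher, 3 lower and 12 not past an adjusted p of 0.01, against 26.5% of all tested genes past it in either direction, and a median log2 fold change of 0.03. EHF, an epithelial ETS factor, rose from 5.57 ± 0.604 to 10.8 ± 0.362 CPM (log2 fold change 0.96, adjusted p 9.59e-11 by edgeR's test), and was the single one called past the fold limit. SMAD3, which relays TGF-beta signals, rose by a log2 fold change of 0.30. ELF3, the related epithelial ETS factor, fell from 367 ± 5.59 to 254 ± 5.47 CPM (log2 fold change -0.53, adjusted p 4.09e-29 by edgeR's test). KLF4, a Kruppel-like factor of epithelia, fell by 0.16 on the log2 scale.

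The partners that bind mucins or their cytoplasmic tails were all measured well enough to test. Of the 19 genes 7 were higher, 3 lower and 9 not past an adjusted p of 0.01, where 13.5% of all tested genes were higher and 13% lower. None reached a 1.5-fold change, and the median log2 fold change was 0.05. CTNNB1, the beta-catenin that binds the MUC1 tail, rose from 869 ± 16.3 to 977 ± 23.7 CPM, a log2 fold change of 0.17. JUP, the related plakoglobin, fell from 610 ± 2.44 to 484 ± 11.7 CPM (log2 fold change -0.33, adjusted p 6.17e-22 by edgeR's test). EGFR, the growth factor receptor, and the chaperone HSP90AA1 rose by log2 fold changes of 0.18 and 0.20, and EZR, a membrane to actin linker, fell by 0.14 on the log2 scale.

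None of the 4 tested proteases that shed mucin ectodomains passed an adjusted p of 0.01 by edgeR's test or DESeq2, and 1 had an unadjusted p under 0.05. That gene was ADAM10, at 342 ± 4.65 CPM in control and 329 ± 4.03 CPM in ADP-CM, with an adjusted p of 0.0398. ADAM17, the main sheddase of MUC1, had a log2 fold change of 0.06, ADAM9 of -0.02 and MMP14 of -0.04.

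Products of secretory and goblet cells were mostly as scarce as the mucins. Of 17 genes 5 were tested, 6 were at 0 in all libraries, and none passed an adjusted p of 0.01 in edgeR or DESeq2 or an unadjusted p under 0.05. TFF1 had a log2 fold change of 0.75 and an adjusted p of 0.124 by edgeR's test, and its value turned on which libraries were kept. It was lower without ADP-CM replicate 3 (-1.43, adjusted p 2.46e-07 by edgeR's test). It was higher and past the threshold without control replicate 3, ADP-CM replicate 1 or ADP-CM replicate 2, with log2 fold changes of 1.20 to 1.90 and adjusted p of 0.00579 to 0.00861 by the same test. Fitted on unfiltered counts from all 6 libraries, it had a value of 0.75 and an adjusted p of 3.38e-11. The other 4, AGR2, FCGBP, ZG16B and SLPI, had log2 fold changes of -0.05 to 0.29.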

How the data were processed

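Stranded poly(A) libraries of RL95-2 cells gave single reads of 50 bp. These the authors aligned to hg19 with TopHat2, counted reads per RefSeq gene with HTSeq, and deposited raw counts without normalization. The submitters' processing notes also name bcl2fastq and SAMtools, and versions and the strand setting of the counting are not given in the sources used here. Lines naming no gene took 31.4% to 33.0% of each library and were left out. Reads carry no molecular identifiers.

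In R 4.3.3, edgeR 4.0.16 was used with TMM normalization, filterByExpr and its quasi-likelihood test, with Benjamini-Hochberg adjustment across the 12663 genes tested. Calls needed an adjusted p under 0.01 and a fold change over 1.5. Alternatives were DESeq2 1.42.0, other scaling and filters, the replicate number as a block, and each library left out. Every pair of replicates differed beyond sampling noise, but by little, with a chi-square of 1.22 to 2.01 per degree of freedom. The common coefficient of variation between replicates in edgeR was 1.67%. In simulated control against ADP-CM counts of 12603 genes, edgeR recovered 97 of 100 genes changed 2.5-fold and 89 of 100 changed 1.8-fold, with 1 false call. The changed genes were drawn from all levels above a low limit, and no library was made to stand apart as ADP-CM replicate 3 does. These rates are therefore not those of a gene as low as MUC1.

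Lengths, positions and repeats came from GENCODE release 44 on GRCh37, as the union of exons, and promoters from RefSeq on GRCh38.p14. Exact permutation tests used scipy 1.17.1. The members and lists were chosen with earlier results of these data known. Named genes are all members, up to 5 tested genes of each list with the smallest p, and the 5 genes most correlated with MUC1. A gene that this rule names is not reported here. A robust edgeR fit, the fit of replicates 1 and 2 alone, windows found once in the genome, and the neighbouring genes, CFB, SERPINA3, SPDEF and the genes set beside MUC1 were added after the data were seen.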

Additional observations from a re-analysis of the deposited data

How the results depend on the processing

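The change of MUC1 kept its direction under all 16 alternatives, with adjusted p between 3.63e-06 and 0.0930. Those that only move the limit on the adjusted p or on the fold reuse the main fit, so their direction could not differ. MUC1 lost its call without ADP-CM replicate 3 (log2 fold change 0.76) and in replicates 1 and 2 alone (0.70). The number of members called was then 0 in each case, and 1 under the other alternatives. Leaving out single libraries gave log2 fold changes of 0.76 to 1.54 for MUC1 and -0.23 to 0.14 for MUC20, whose value was also -0.14 in replicates 1 and 2 alone and which was called under none. DESeq2 gave 1.28 for MUC1 with an adjusted p of 0.00575. Without the fold limit 3357 of all genes passed, 1707 higher and 1650 lower, and DESeq2 called 94 genes higher, against 144 by edgeR.

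RPKM levels depend on the length used. For MUC1 in control the longest transcript gave 0.526 and windows found once in the transcript 0.541. For MUC20 the longest transcript gave 0.249 in control and 0.252 in ADP-CM, windows found once in the transcript 0.282 and 0.286, and windows found once in the genome 0.275 and 0.279.

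After the mean of its group was subtracted from each library, same-numbered libraries correlated at 0.0663, 0.0370 and 0.0887 over 12137 genes. Each library correlated best with the one of its own number in the other group. These values do not settle whether the replicate numbers pair the samples. With the replicate number as a block, MUC1 had a log2 fold change of 1.26 and an adjusted p of 2.89e-05, 1 member and 297 of all genes were called, and TFF1 passed at an adjusted p of 4.45e-05. Depth limits the 6 members below the filter, for which a count of 0 in a library still allows up to 3 reads. The cause of each change above was not tested.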

Other observations

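Further genes, chosen after their values were seen, had their highest reads in replicate 3 of both groups, as MUC5B, TFF1, SPDEF and SERPINA3 did. GREB1, an estrogen-responsive gene, had 12, 19 and 51 reads in control and 22, 38 and 67 in ADP-CM, in the order of the replicates. IGFBP4, which binds insulin-like growth factors, had 4, 7 and 39 reads in control and 6, 19 and 50 in ADP-CM. S100A14 had 7, 10 and 38 reads in control and 17, 16 and 58 in ADP-CM. PGR, the progesterone receptor, had 0, 0 and 2 reads in control and 2, 0 and 12 in ADP-CM. ESR1, the estrogen receptor, was highest there by less, with 20, 27 and 29 reads in control and 22, 32 and 51 in ADP-CM. Whether RNA from other cells was present in these libraries was not tested.

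Low counts of other mucins were found as well. MUC7, a salivary mucin, had 3, 7 and 3 reads in control and 6, 5 and 9 in ADP-CM, and OVGP1, an oviduct mucin-like glycoprotein, had 9, 3 and 6 in control and 11, 10 and 3 in ADP-CM. Both overlapped between groups.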
